A study of Rattus norvegicus with 26 samples.

Results

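The proteasome genes of the rat were followed through stepwise feed restriction in liver and in white fat. They were all genes with a single annotated symbol starting with Psma, Psmb, Psmc, Psmd, Psme or Psmf, without the interferon-inducible Psmb8, Psmb9 and Psmb10. The rule found 39 genes among 14217 on the array: 13 of the core particle, 17 of the regulatory particle, 3 assembly chaperones of its base, 3 activators, 1 inhibitor, and 2 proteins, Psmc3ip and Psme3ip1, that are named after a subunit they bind and are not subunits. Each gene is shown by its probe set with the highest mean over all 26 arrays. Levels are log2 values, and a change is the log2 value of restricted minus control rats, with its standard error (SE).

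Inbred male Long-Evans (Turku/AB) rats, 11 to 15 weeks old at the start, were all given 4 mL/kg of corn oil at the start. For 4 days, restricted rats were offered 18, 12, 9 and then 6 g of pelleted feed a day, and inguinal white adipose tissue (4 control and 4 restricted arrays) and liver (4 and 4) were taken at day 4. In the longer regimen, with powdered feed, rats fed freely on day 0 were then offered 16, 14 and 11 g on days 1 to 3, from 8 g down to 4 g on days 4 to 7, then 2 g and, on day 9, 1 g, and liver was taken at day 10 (5 and 5). Control rats had no feed restriction. The whole daily portion was handed out at 1 time, with the lights on. The regimens thus differ in length, severity and feed form together. The description counts 1 array per rat, and the labels do not say whether a rat gave both adipose tissue and liver, so every array was treated as a separate animal.

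The proteasome destroys proteins that carry a ubiquitin chain. Its barrel-shaped core stacks rings of alpha subunits, which form the gate, around rings of beta subunits, which hold the cutting sites. The regulatory particle caps the barrel: the ATPases of its base unfold the substrate, and its lid removes the ubiquitin. Proteasomes and autophagy are the main routes by which liver breaks down its own protein, and liver loses protein quickly when food is withheld.

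All 11 measured hepatocyte markers lay above the array median on every liver array, and all 11 adipocyte markers on every adipose array. Of the 31042 probe sets tested, limma called 17 in fat (adjusted p below 0.05), and in liver 1732 at day 4 and 3471 at day 10. Groups of 4 or 5 arrays limit the precision: for the change of a proteasome gene the median SE was 0.08 in fat, and in liver 0.07 at day 4 and 0.05 at day 10. The sets were pre-processed separately, so levels are compared within a set only.

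In mammals several proteasome promoters carry a CCAAT box, bound by the factor NF-Y, or an antioxidant response element, bound by Nfe2l1 and Nfe2l2. Promoters of interferon-inducible subunits can carry interferon response elements. The promoters of 3 members are shown because they hold these letters and because their genes differ at day 10: Psma3 and Psmd7 fell and Psmb5 was not called. They come from RefSeq (build GRCr8), are printed in the direction of the gene and hold the 180 bases up to its annotated start. Capitals mark CCAAT or its reverse complement in Psma3 and Psmd7, the antioxidant element TGACNNNGC or its reverse complement in Psma3 and Psmb5, and the reverse complement of the interferon element (GAAA, any 2 bases, GAAA) in Psmd7.
Psma3, chr6:95219569-95219748, plus strand: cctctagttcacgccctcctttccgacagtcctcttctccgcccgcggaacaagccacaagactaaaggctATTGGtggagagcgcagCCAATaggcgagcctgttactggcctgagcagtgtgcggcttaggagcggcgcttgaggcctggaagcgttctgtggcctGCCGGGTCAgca
Psmb5, chr15:32047380-32047559, minus strand: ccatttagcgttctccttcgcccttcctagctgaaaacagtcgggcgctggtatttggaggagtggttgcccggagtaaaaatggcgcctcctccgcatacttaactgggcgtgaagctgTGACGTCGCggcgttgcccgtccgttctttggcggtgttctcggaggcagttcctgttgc
Psmd7, chr19:52411317-52411496, minus strand: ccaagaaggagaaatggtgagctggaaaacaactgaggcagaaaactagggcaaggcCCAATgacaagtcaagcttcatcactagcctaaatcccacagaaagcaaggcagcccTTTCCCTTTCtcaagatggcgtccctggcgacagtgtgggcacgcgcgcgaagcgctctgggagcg

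A promoter was found for 35 of the 39 members. In the 250 bases before the start, on either strand, CCAAT stood in 19 of 35 (54.3%, against 34% of the 33469 promoters in the table). TGACNNNGC stood in 6 of 35 (17.1%, against 10.1%) and the interferon element in 4 of 35 (11.4%, against 3.41%). Among the 10 promoters of members that fell at day 10, the counts were 6, 1 and 2, and among the other 25 they were 13, 5 and 2. Of the promoters of Psmb8, Psmb9 and Psmb10, only that of Psmb10 held the interferon element. Overlaps between motifs were not removed. The matches describe letters and were not tested for binding.

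After 10 days, 11 of the 39 proteasome genes had fallen in liver and 0 had risen. They were 3 of the 7 alpha ring genes, 2 of the 6 ATPases, 1 of the 3 other base subunits and 3 of the 8 lid subunits. The others were 1 activator and the inhibitor, and of the 6 beta ring genes 0 fell. Of all genes 8.15% fell, and of those with a mean of at least 8 in this set 19.4%. Whether the roles differed was not tested, and they hold few genes each. The changes were modest, from -0.20 for Psmd4 to -0.35 for Psma5, which is 12.7% to 21.6% lower. The 28 others were not called, and the median over all 39 was -0.02, against 0.00 over all genes and 0.02 over those with a mean of at least 8. At an unadjusted p below 0.05 there were 17, of which 13 were lower, where 28.6% of all genes passed and 14.1% were lower (61.2% and 28.8% of genes with a mean of at least 8).

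The members that fell made up 28.2% of the 39, where 8.15% of all 14217 genes fell and 8.67% rose. Most proteasome genes are bright on the array, and bright genes are called more often. Among the 4022 genes with a mean of at least 8 in this set, 19.4% fell and 22.4% rose. Of the 35 members this bright, 10 fell (28.6%) and 0 rose. Counted in either direction, 28.6% is below the 41.8% of bright genes that changed. All arrays of the restricted rats lay below all control arrays for 12 members, the 11 that fell and Psmc4, where this held for 8.2% of all genes and 18.1% of bright ones.

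**Figure D1:**
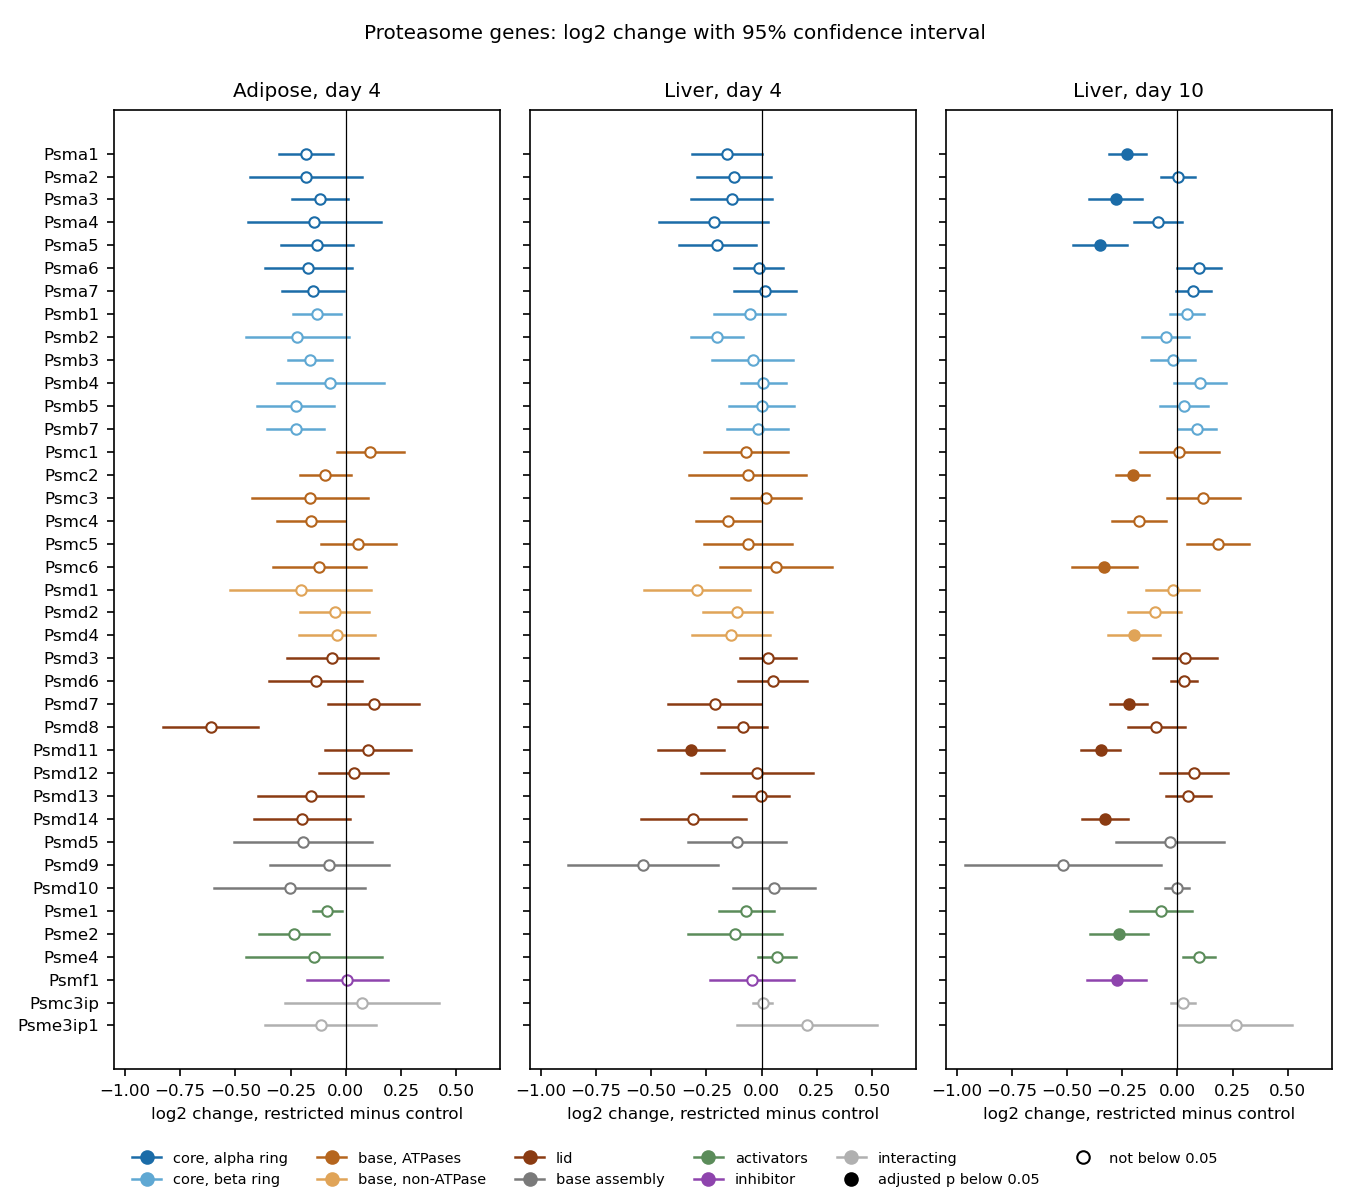
Change of each of the 39 proteasome genes (rows, grouped by role) in adipose tissue at day 4, liver at day 4 and liver at day 10. Points are log2 changes of restricted minus control rats, lines are 95% confidence intervals, and filled points have an adjusted p below 0.05: 0, 1 and 11 genes.

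Of the alpha ring, which gates the core, Psma5 changed most at day 10. It measured 11.48, 11.55, 11.39, 11.35 and 11.49 on the control arrays and 11.24, 11.15, 11.09, 11.01 and 11.01 on the restricted ones. Every restricted array was below every control array, with 2 restricted arrays level at the bottom. The change was -0.35 (SE 0.05, n = 5 and 5, limma adjusted p = 0.00281).

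Psma3, another alpha ring subunit, measured 8.13, 7.89, 8.02, 7.85 and 7.90 in control rats and 7.68, 7.62, 7.74, 7.65 and 7.70 in restricted rats (change -0.28, SE 0.05, limma adjusted p = 0.00877). The groups did not overlap, though the gap was narrow. This probe set is dimmer than those of the other alpha ring genes that fell. A second probe set, assigned to Psma3 and Psma3l together, was not used.

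Psma1, also of this ring, measured 11.39, 11.35, 11.48, 11.35 and 11.45 against 11.26, 11.17, 11.09, 11.20 and 11.19 (change -0.23, SE 0.04, limma adjusted p = 0.00375). Its groups were again separate. The other 4 alpha ring genes were not called, with changes of -0.09 for Psma4, 0.00 for Psma2, 0.07 for Psma7 and 0.10 for Psma6.

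Of the beta ring, which cuts the protein chain, 6 genes were measured, with changes from -0.05 for Psmb2 to 0.10 for Psmb4 and a median of 0.04. Psmb5, the subunit with chymotrypsin-like activity, measured 11.54, 11.56, 11.45, 11.56 and 11.54 in control rats and 11.46, 11.57, 11.54, 11.73 and 11.49 in restricted rats. Restricted arrays lay on both sides of the control ones (change 0.03, SE 0.05, 95% confidence interval -0.08 to 0.14). This interval leaves out changes as large as those of the 3 alpha ring genes. Psmb7, the subunit with trypsin-like activity, measured 10.92, 11.10, 11.02, 11.10 and 10.99 against 11.16, 11.07, 11.13, 11.16 and 11.07, with overlap (change 0.09, SE 0.04, interval 0.00 to 0.18, limma adjusted p = 0.222). Psmb6, the remaining catalytic subunit, shares its probe set with a second symbol and is not reported here.

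**Figure D2:**
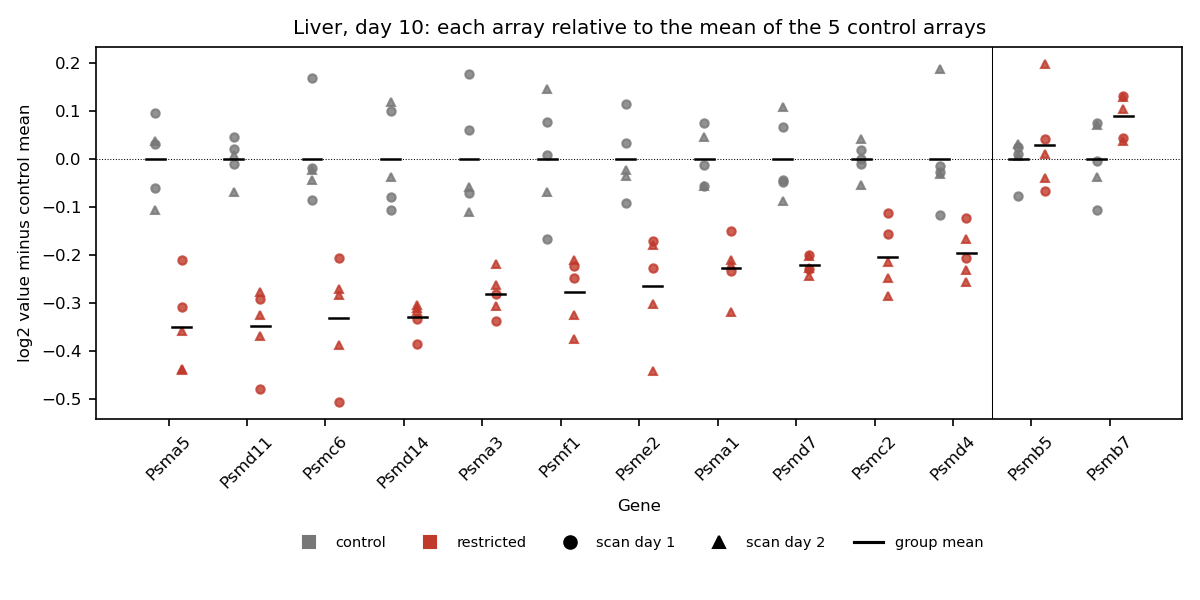
Log2 value on each of the 10 day 10 liver arrays minus the mean of the 5 control arrays, for the 11 genes that fell and for the catalytic subunits Psmb5 and Psmb7 at the right. Grey is control, red restricted, circles scan day 1, triangles scan day 2, and bars are group means. Control and restricted arrays are separate for the 11 genes and overlap for Psmb5 and Psmb7.

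Among the ATPases of the base, which unfold the substrate, Psmc6 had the largest change. Its control arrays read 11.30, 11.23, 11.49, 11.29 and 11.27, and its restricted arrays 11.11, 10.81, 11.03, 10.93 and 11.05. The third control array was high, and the groups were separate (change -0.33, SE 0.06, limma adjusted p = 0.01). All 3 probe sets of Psmc6 fell, the others by 0.42 and 0.51.

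Psmc2, another ATPase, fell from 11.71 ± 0.04 to 11.51 ± 0.07 (mean ± SD, n = 5 and 5, change -0.20, SE 0.03, limma adjusted p = 0.00428). The other 4 ATPases were not called. Of these, Psmc4 had a change of -0.17 (adjusted p = 0.0844) and Psmc5 one of 0.18 (adjusted p = 0.114). Psmd4, a ubiquitin receptor of the base, fell from 10.07 ± 0.11 to 9.88 ± 0.05, with an adjusted p of 0.0446 by limma that was lost in 13 of 20 alternatives, among them leaving out control 2, 3 or 4 or restricted 1, 3, 4 or 5. The scaffold subunits Psmd1 and Psmd2 were not called, with changes of -0.02 and -0.10.

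In the lid, Psmd11, a subunit that helps join the lid to the core, had the smallest adjusted p of all members. It read 11.33, 11.36, 11.39, 11.35 and 11.27 in control rats and 11.05, 10.86, 11.02, 10.97 and 11.06 in restricted rats. The lowest control array stood clearly above the highest restricted array (change -0.35, SE 0.04, limma adjusted p = 0.000604). The second bright probe set of Psmd11 fell by 0.39, and a dim one, at 4.14 in control rats, had a change of 0.01.

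Psmd14, the enzyme that cuts the ubiquitin chain from the substrate, read 9.59, 9.80, 9.62, 9.66 and 9.82 against 9.31, 9.37, 9.38, 9.39 and 9.39. The restricted arrays were close together and all below the controls (change -0.33, SE 0.05, limma adjusted p = 0.00184). Its other 2 probe sets fell by 0.33 and 0.28. Psmd7, the lid subunit that pairs with Psmd14, read 10.12, 10.24, 10.13, 10.08 and 10.28 against 9.97, 9.94, 9.94, 9.93 and 9.97, with no overlap (change -0.22, SE 0.04, limma adjusted p = 0.00455).

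The second probe set of Psmd7 fell by 0.29. The other 5 lid genes, Psmd3, Psmd6, Psmd8, Psmd12 and Psmd13, were not called, with changes from -0.10 to 0.07. By particle, 3 of 13 core genes fell, with a median change of 0.00, and 6 of 17 regulatory genes, with a median of -0.10. Whether the particles differed was not tested.

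Psme2, which forms a cap on the core with Psme1 and is interferon-inducible, read 10.83, 10.75, 10.62, 10.68 and 10.69 in control rats at day 10. In restricted rats it read 10.54, 10.49, 10.41, 10.54 and 10.27, below every control array (change -0.26, SE 0.06, limma adjusted p = 0.017). Its partner Psme1 was not called (-0.07). Psmf1, an inhibitor of the core in the test tube, read 10.24, 10.48, 10.41, 10.33 and 10.55 against 10.18, 10.15, 10.08, 10.19 and 10.03. Its groups were separate but close (change -0.28, SE 0.06, limma adjusted p = 0.0165).

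Probe sets disagreed for Psme4, an activator that caps the core. The brightest gave 0.10 (adjusted p = 0.0917) and the next 0.08, while the dimmest fell by 0.53 (SE 0.07, limma adjusted p = 0.000936). Among the chaperones that assemble the base, Psmd9 had a change of -0.52 with an SE of 0.20 and was not called (adjusted p = 0.16). Its restricted arrays ranged from 7.56 to 8.58 and its control arrays from 8.41 to 8.83, and a second, dim probe set gave -0.04. Psmd5 and Psmd10 stood at -0.03 and -0.0015, and the subunit-binding protein Psme3ip1 at 0.26 (adjusted p = 0.228).

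The day 10 arrays were scanned on 2 days, with 3 control and 2 restricted arrays on scan day 1 and 2 and 3 on scan day 2. With scan day as a block 10 members fell, all but Psmd4. On scan day 1 alone 0 of 39 were called by limma and on scan day 2 alone 1, Psmd11, with few arrays in each. The 11 genes had changes from -0.40 to -0.11 on scan day 1 and from -0.38 to -0.18 on scan day 2. Their signs are no separate check. The genes were chosen on these same arrays, and all their restricted arrays lay below all controls, which fixes the sign on each day.

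After 4 days, 1 of the 39 members had fallen in liver and 0 had risen, where 3.97% of all genes fell and 4.53% rose. Among the genes with a mean of at least 8 in this set 10.5% fell. The median change of the members was -0.06, against 0.01 over all genes and 0.02 over the bright ones. Changes were below 0 in 29 of 39 members, where this held for 36.8% of all genes and 46.8% of the bright ones. At an unadjusted p below 0.05 there were 8, all lower, where 10.7% of all genes and 22.7% of the bright ones were lower at that p.

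The gene was Psmd11, which read 10.78, 10.97, 10.86 and 10.96 in control livers and 10.47, 10.49, 10.68 and 10.65 in restricted livers. All restricted arrays were below all controls (change -0.32, SE 0.06, n = 4 and 4, limma adjusted p = 0.0319). The call was lost in 6 of 15 alternatives, among them leaving out control 2, 3 or 4 or restricted 1 or 2. Its second bright probe set fell by 0.22 (SE 0.03, limma adjusted p = 0.00589). Psmd14 stood at -0.31 (SE 0.10, adjusted p = 0.166), Psmd1 at -0.29 (adjusted p = 0.201) and Psmd9 at -0.54 (SE 0.14, adjusted p = 0.0921), and none of them was called.

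The catalytic subunits showed no change that could be told from 0 in liver at day 4. Psmb5 read 10.98, 11.02, 10.94 and 11.19 in control rats and 11.11, 10.98, 10.96 and 11.09 in restricted rats (change -0.0004, 95% confidence interval -0.15 to 0.15). Psmb7 read 10.74, 10.76, 10.83 and 10.91 against 10.78, 10.86, 10.65 and 10.88 (change -0.02, interval -0.16 to 0.12). Groups overlapped for both.

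Of the 11 genes that fell at day 10, 10 had a change below 0 at day 4, with a median of -0.14 against -0.28 at day 10. The exception was Psmc6, at 0.06, though its other probe sets stood at 0.01 and -0.24 at day 4, so its sign there depends on the probe set. The 11 genes were picked by their day 10 values, which enlarges their day 10 median, so their medians at day 4 and day 10 cannot be compared. Over all 39 members the median was -0.06 at day 4 and -0.02 at day 10. Of all 39 members, 29 lay below 0 at day 4. Over all 39 members the changes in both liver sets, which share no array, had a Pearson r of 0.713 (Spearman rho 0.686), close to the 0.703 over all 14217 genes. Genes are not independent replicates, and this is a description. Tested directly, the change at day 10 differed from that at day 4 for 0 of 39 members (0.978% of all genes, smallest adjusted p = 0.222). At an unadjusted p below 0.05 there were 4 members, where 11.7% of all genes passed. The 95% confidence interval of such a difference reached a median of 0.19 to either side.

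**Figure D3:**
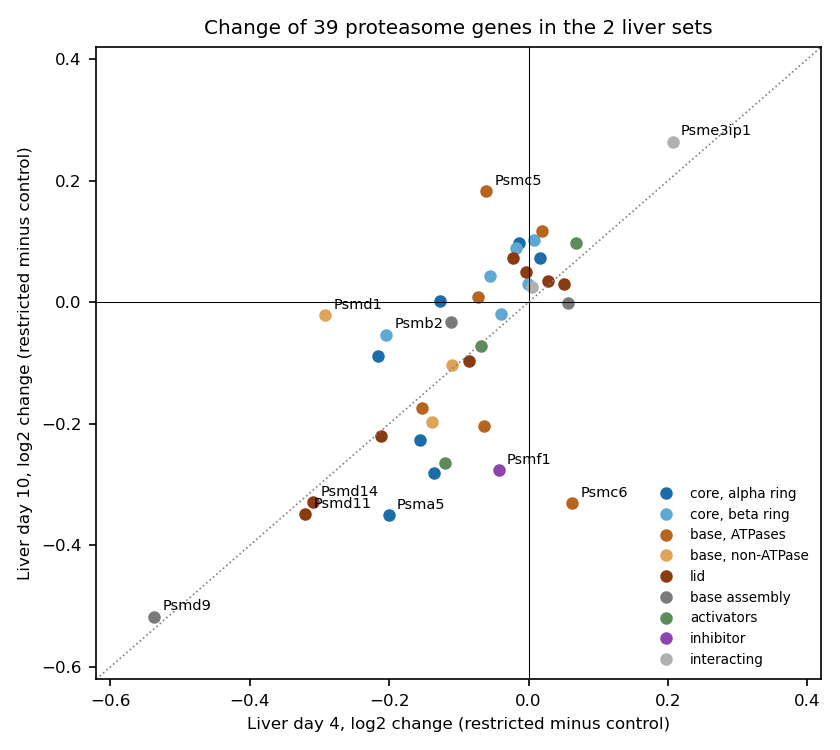
Log2 change of each of the 39 proteasome genes in liver at day 4 (horizontal) and at day 10 (vertical), coloured by role, with the line of equal change. Most genes that fell at day 10 also lie left of 0 at day 4. Psmc6, at 0.06 and -0.33, does not.

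In adipose tissue 0 of 39 members were called at day 4 by limma, where 0.106% of all genes were. At an unadjusted p below 0.05 there were 10, all lower, where 8.69% of all genes and 18.2% of those with a mean of at least 8 were lower at that p. The smallest adjusted p was 0.118, for Psmd8. Changes were below 0 in 32 of 39 members, with a median of -0.14, and in all 13 core genes, with a median of -0.16. Bright genes at large were lower too: 70.4% of the 5429 with a mean of at least 8 lay below 0, with a median of -0.10. With the arrays quantile-normalized the members' median was -0.03, and without control 4 it was -0.07. Markers of 2 cell types were lower with them: the mean level of 11 adipocyte markers ran from 13.49 to 13.91 on control and from 13.13 to 13.41 on restricted arrays, and that of 11 hepatocyte markers, 6 of them below the array median on every array, from 4.03 to 5.32 against 3.46 to 3.68. Of either list 0 markers were called, and their part in the members' values was not tested.

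Psmd8, a lid subunit, stood furthest from 0 in fat. It read 10.48, 10.18, 10.26 and 10.51 in control rats and 9.59, 9.79, 9.82 and 9.79 in restricted rats, with no overlap (change -0.61, SE 0.09, adjusted p = 0.118). In liver at day 4 it read 10.25, 10.30, 10.36 and 10.47 against 10.26, 10.24, 10.31 and 10.24 (change -0.09, SE 0.05). The difference between the tissues was -0.53 (SE 0.11, limma adjusted p = 0.0151), and Psmd8 was the 1 member of 39 called for it (5.11% of all genes). It was called in neither tissue alone. Psmd11 differed by 0.42 the other way (SE 0.11, adjusted p = 0.0518). It stood at 0.10 in fat and was not called there.

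Psmb5 in fat read 11.67, 11.74, 11.66 and 11.77 in control rats and 11.28, 11.48, 11.61 and 11.57 in restricted rats, with no overlap (change -0.23, SE 0.07, adjusted p = 0.468). Psmb7 read 11.10, 11.02, 11.03 and 11.20 against 10.79, 10.94, 10.80 and 10.91, also apart (change -0.23, SE 0.05, adjusted p = 0.284). Restricted arrays lay below all controls for 6 members, where this held for 6.07% of all genes and 12.4% of bright ones. All control arrays were run before all restricted ones on the fluidics station, per the scan records, so run order and diet cannot be told apart in this set. Of the 11 genes that fell in liver at day 10, 8 had changes below 0 in fat (median -0.12). So had 32 of all 39 members and 70.4% of bright genes. Psmd7, Psmd11 and Psmf1 stood at 0.13, 0.10 and 0.01. Over the 39 members, the changes in fat and in liver at day 10 had a Pearson r of -0.06, against 0.07 over all genes.

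Of the 3 interferon-inducible catalytic subunits, which replace Psmb5, Psmb6 and Psmb7 in the immunoproteasome, Psmb8 and Psmb9 fell in both liver sets. Psmb9 fell at day 10 from 11.20, 10.98, 10.81, 10.88 and 10.63 to 8.90, 8.68, 8.28, 8.41 and 7.98 (change -2.45, SE 0.17, limma adjusted p = 7.28e-05). Psmb8 fell from 10.87, 10.92, 10.60, 10.64 and 10.51 to 9.64, 9.59, 9.47, 9.38 and 9.03 (change -1.29, SE 0.13, limma adjusted p = 0.000306). Both were apart from the controls on every array and on both scan days, with changes of -2.21 and -2.53 for Psmb9 and -1.18 and -1.28 for Psmb8. At day 4 they had fallen by 1.65 (SE 0.27, limma adjusted p = 0.0149) and 0.76 (SE 0.08, limma adjusted p = 0.00225).

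Psmb10 was not called at either time (0.05 at day 4 and -0.47, adjusted p = 0.121, at day 10). At day 10 its restricted arrays, at most 7.83, still lay below its control arrays, at least 7.92. Its changes were -0.30 on scan day 1 and -0.55 on scan day 2. In fat 0 of the 3 were called, with changes from -0.03 to 0.01. These genes are strongly expressed in blood-derived cells, and markers of macrophages and Kupffer cells moved with them. Of 14 measured markers 11 fell in liver at day 10, 6 at day 4 and 0 in fat. Their mean level ran from 9.74 to 10.11 on control arrays and from 8.80 to 9.27 on restricted arrays at day 10, and from 9.10 to 9.34 against 8.52 to 8.87 at day 4. Of 11 lymphocyte markers, 1, Ptprc, fell at day 10, and 8 lay below the array median on every array of either liver set. Of 4 red blood cell markers 2, Hbb and Alas2, fell at day 10 and 0 at day 4, with a mean level of the list from 6.19 to 7.14 on control and from 4.79 to 5.56 on restricted arrays at day 10. Of 10 fibroblast and stellate cell markers 1, Col3a1, fell at day 4, with list means of 5.66 to 5.78 against 4.83 to 5.55. At that time 6 of the 10 lay below 0. At day 10, 2 of the 10 fell and 1 rose, with list means of 5.12 to 5.80 against 5.09 to 5.66. The part of these cells in the fall of Psmb8, Psmb9 and Psme2 was not tested, and in bulk tissue fewer cells of a type and less RNA per cell cannot be told apart.

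**Figure D4:**
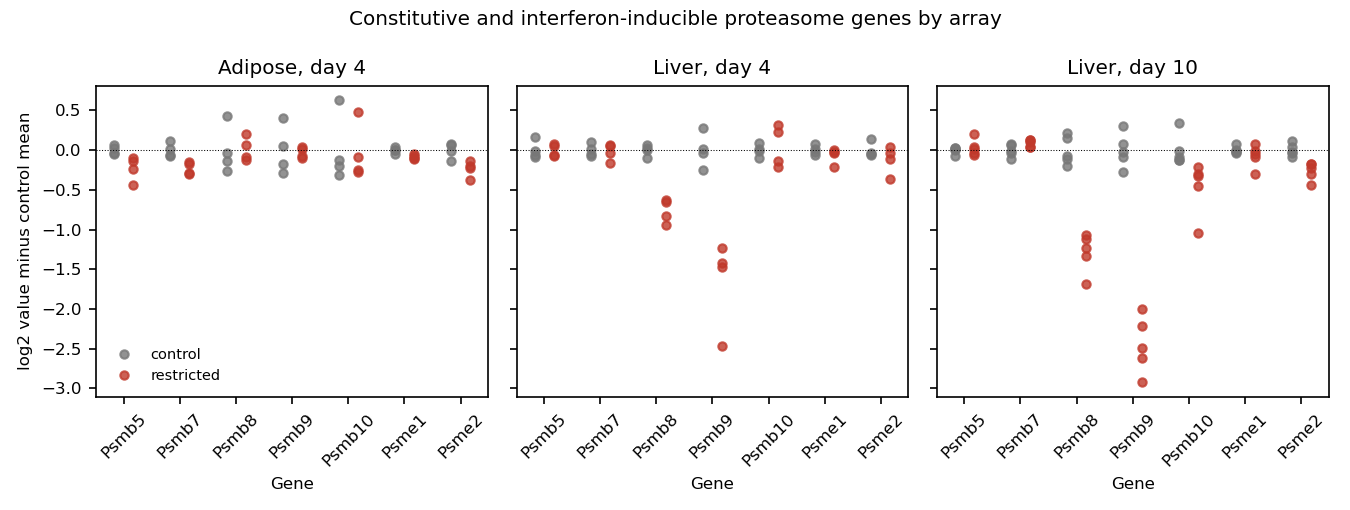
Log2 value on each array minus the mean of the control arrays of its set, for the constitutive catalytic subunits Psmb5 and Psmb7, the interferon-inducible Psmb8, Psmb9 and Psmb10, and the activator subunits Psme1 and Psme2. Grey points are control and red points restricted rats. Psmb8 and Psmb9 lie apart in both liver sets and overlap in fat. Psmb10 and Psme2 lie apart in liver at day 10 only.

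Genes that build or serve the proteasome were measured as well, and in fat 0 genes of any of these lists were called. The counts that follow stand beside these shares. Of all genes, 3.97% fell and 4.53% rose in liver at day 4, and 8.15% and 8.67% at day 10. Of bright genes, 10.5% fell and 13.8% rose at day 4, and 19.4% and 22.4% at day 10. Whether a list differed from these shares was not tested. Of 5 assembly chaperones of the core 0 were called in any set. Pomp, which matures the new core, stood at 0.03 in liver at day 10, and Psmg2, an early assembly chaperone, at -0.12. Of 11 proteins that bind the proteasome 2 fell and 1 rose at day 10 and 0 were called at day 4. The deubiquitinase Usp14, which trims chains on the regulatory particle, fell by 0.32 (SE 0.06, limma adjusted p = 0.00748), and Txnl1, a thioredoxin bound near the lid, by 0.28. The ligase Ube3c, which extends chains on stalled substrates, rose by 0.25.

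Of 8 factors that control proteasome genes or their processing, 2 rose and 1 fell at day 10 and 1 rose at day 4. Ddi2, the protease that releases active Nfe2l1, rose by 0.70 at day 4 (SE 0.12, limma adjusted p = 0.0158) and by 1.04 at day 10 (SE 0.17, limma adjusted p = 0.00367), with no overlap at either time. Nfe2l1 itself, the factor that raises proteasome genes when proteasome activity is low, was not called (0.12 and 0.17). Nfe2l2, the antioxidant factor, fell by 0.80 at day 10 with overlapping arrays (SE 0.16, limma adjusted p = 0.0106), and Nfyc, a subunit of the CCAAT-binding factor, rose by 0.25.

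Upstream of the proteasome, Uba6, an alternative ubiquitin-activating enzyme, fell by 0.70 at day 10 (limma adjusted p = 0.00522), while the main enzyme Uba1 was not called (0.01). Of 25 ubiquitin-conjugating enzymes 8 fell and 2 rose at day 10, where 19.4% of bright genes fell and 22.4% rose. At day 4, 1 of the 25 fell. Ube2l6, an interferon-inducible enzyme that serves ISG15, fell by 1.10, Ube2o by 0.94 and Ube2j1, of the endoplasmic reticulum, by 0.28, and Ube2b rose by 0.42. At day 4 Ube2h fell by 0.37 (limma adjusted p = 0.00625).

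Of 9 genes of the segregase Vcp, which pulls ubiquitinated proteins out of membranes and complexes, and its cofactors, 3 fell and 3 rose at day 10. Ubxn4 fell by 0.73 and Ufd1, which with Nploc4 forms the main adaptor of Vcp, by 0.42. Nploc4 fell by 0.36, Ubxn6 rose by 0.52, and Ubxn1 rose by 0.35 at day 10 and by 0.37 at day 4. Vcp was not called (-0.19, adjusted p = 0.0565).

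Of 9 ubiquitin ligases linked to muscle wasting 3 rose at day 10 and 0 fell: Fbxo31 by 1.45 (SE 0.19, limma adjusted p = 0.00139), Fbxo21 by 1.26 (SE 0.21, limma adjusted p = 0.004) and Cblb by 0.92. Fbxo32 and Trim63, the ligases best known from wasting muscle, lay near background in every set, at means of 2.32 to 2.67. The 8 genes of the chaperonin TRiC, which folds actin, tubulin and other cytosolic proteins, had 0 genes that fell at either time: 5 rose at day 4, Tcp1 by 0.52 and Cct2 by 0.47 among them, and 4 at day 10, Cct7 by 0.44 and Cct2 by 0.43 among them. Their medians were 0.27 and 0.27, against 0.01 and 0.00 over all genes.

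**Figure D5:**
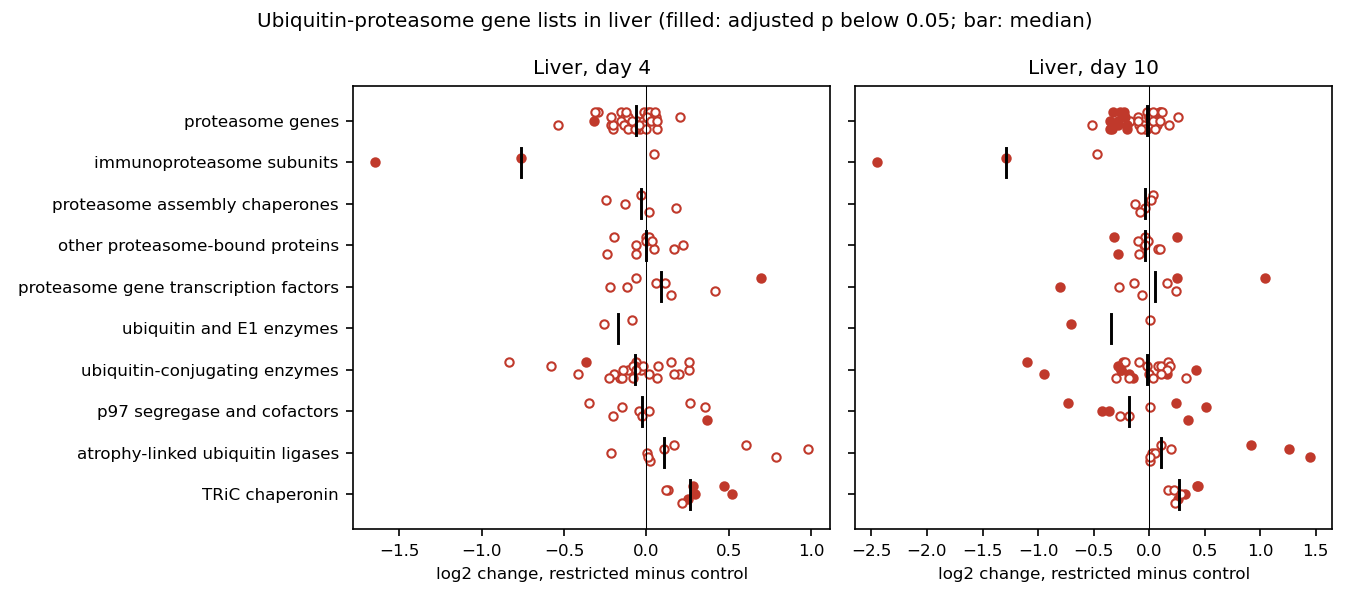
Log2 change of every measured gene of the proteasome and of 9 related lists in liver at day 4 and day 10. Filled points have an adjusted p below 0.05, black bars are list medians, and the horizontal scales differ between panels. The proteasome genes lie close to 0, Psmb8 and Psmb9 far to the left, and the TRiC genes to the right.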

How the data were processed

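RNA of control and restricted rats was measured on 13 and 13 Affymetrix Rat230_2 arrays. Per the labels the deposited values are log2 expression values, pre-processed by the authors in 3 separate sets. Per the submitters' processing notes R 2.4.1, affy 1.12.2, RMA and GCRMA 2.6.0 were used, and it is not given in the sources used here whether the values are RMA or GCRMA ones. Values were used as deposited.

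Of 31099 probe sets, 57 controls were left out. Of the 31042 tested, 20826 had 1 symbol, 436 several and 9780 none. Each set was fitted alone with limma 3.58.1 in R 4.3.3 (two-sided, Benjamini-Hochberg over all probe sets, threshold 0.05), and differences between sets by an interaction in 1 fit. The procedure was tested on simulated data. Genes counted as bright have a mean of at least 8 in the set.

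The members and gene lists were chosen with earlier results of these data known. Named besides the members are up to 4 called genes of each list in each set by size, or up to 2 where none was called, with a few uncalled genes (Vcp, Uba1, Nfe2l1) added after their values were seen. Array values are given for the 8 members with the largest called change, for Psmb5 and Psmb7, and for Psmd7 and Psmd8, chosen after their values were seen. Plots used matplotlib 3.10.9 (Python 3.11.15). No 2 arrays held identical values. Other alternatives were normalization, a filter on dim probe sets, replicate number as a block, another variance model, a joint fit, the mean of a gene's probe sets, scan day, and leaving out each array. The liver day 4 scan records were not used here, so scan day was not checked in that set. Its mean over all 39 members was 9.79 and 9.83 on control 1 and 2, against 9.90 and 9.97 on control 3 and 4. On restricted 1 and 2 it was 9.76 and 9.73, against 9.79 and 9.86 on restricted 3 and 4. Whether these arrays were run in separate batches was not tested.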

Additional observations from a re-analysis of the deposited data

Results flagged for a closer look

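The change of Psmd8 differed between fat and liver at day 4 (difference -0.53, limma adjusted p = 0.0151, n = 4 and 4 arrays in each tissue), with all 4 restricted fat arrays below the 4 control ones.

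Single arrays stood apart from the others of their group for 20 of 240 groups of values checked, where about 12 would be flagged by chance at 1 in 20. In liver at day 4 there were 10. Control 4 was high for Psmb4 (11.88, the others at most 11.76), Psmd1 (9.47, the others at most 9.14) and Psme2 (10.36, the others at most 10.19). Control 3 was high for Psmc3ip (2.10, near background). Control 1 was low for Psmd7 (9.60, the others at least 9.92).

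Among the restricted livers of day 4, array 2 was low for Psma7 (10.74), Psmb2 (10.87) and Psme1 (11.86). Array 1 was high for Psmd10 (7.61) and array 4 for Psmd7 (9.79, the others at most 9.60).

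In fat, control 4 was high for Psma4 (9.72, the others at most 9.24) and Psmd9 (6.17, the others at most 5.94). Restricted 1 was low in the mean over all 39 members (10.04, the others at least 10.15) and for Psmd8 (9.59, the others at least 9.79), and restricted 2 was high for Psmc3ip (5.58).

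In liver at day 10, control 5 was high for Psma4 (10.03), and control 3 was low for Psmb5 (11.45) and high for Psmc6 (11.49, the others at most 11.30). Restricted 3 was high for Psmc3ip (2.45) and restricted 5 for Psme3ip1 (6.55, the others at most 6.25).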

How the results depend on the processing

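Over all alternatives to the single-gene results that could be compared, 582 of 627 kept their side of the threshold, 40 lost the call and 5 gained one. Most of the 627 belong to uncalled results of Psmb5, Psmb7, Psmd8 and Psmd9, which were followed by name and had no call to lose. All 40 losses lie among the fewer alternatives to called results, so 582 of 627 does not measure how stable the calls were. Among alternatives with a call in either fit, 0 reversed direction. Direction was not compared for uncalled changes, and some near 0 changed sign, such as Psmb5 in liver at day 4 (-0.03 to 0.05). In liver at day 10 the 11 called members became 10 to 12 when any 1 array was left out, 10 with the replicate block (9 lower and Psmc5 higher), 0 on scan day 1 alone and 1 on scan day 2 alone. With arrays quantile-normalized or median-centred Psme4 was called higher beside 11 and 10 lower genes, and with the mean of a gene's probe sets it was called lower, among 12 lower genes. In 1 fit of all 26 arrays Psmd9 was added, for 12 lower genes. In liver at day 4 the 1 called member became 2 with median-centred arrays, 2 with probe sets of a mean of at least 5, 2 in 1 fit of all 26 arrays and 2 with the mean of a gene's probe sets, and 0 to 2 when 1 array was left out. It was 0 without control 3, control 4, restricted 1 or restricted 2, and Psmd9 in place of Psmd11 without control 2. With the replicate block 1 was called, Psmd1 in place of Psmd11. In adipose tissue 0 became 2 in 1 fit of all 26 arrays (Psmb7 and Psmd8) and stayed 0 when any 1 array was left out. The difference between adipose and liver effects went from 1 member to 2, adding Psmd11, with quantile-normalized arrays, with probe sets of a mean of at least 5 and in 1 fit of all 26 arrays, to 0 with the replicate block (Psmd8, adjusted p = 0.0884), and to 1 to 2 when 1 array was left out (2 without adipose control 2, adipose restricted 1 or liver control 1). For the difference between the liver effects 0 were called in every alternative run. Smaller fits within a scan day have fewer arrays, and for the other shifts the cause was not tested. Arrays with the same number did not deviate together (r from -0.39 to 0.233 over the 3 sets). With few pairs in each set, this cannot show whether the numbers mark a pairing. At day 10 most arrays with the same number were scanned on the same day.

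The smallest called change of a member was -0.20 (Psmd4, day 10), and probe sets near the array median carry little signal over background.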
